A study of Mus musculus with 2 samples.

Results

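The interleukin system of the mouse uterus was taken as every listed gene whose symbol begins with Il and a digit, leaving out Il6st and Il6ra. This gave 80 of the 20634 genes listed, of which 37 encode ligands and 38 encode receptor chains. The other 5 are the antagonist genes Il1rn and Il1f5, the soluble binding protein genes Il18bp and Il22ra2, and the enzyme gene Il4i1. Levels are FPKM, the fragments of a gene per kilobase of transcript and per unit of sequencing depth. In both libraries 24 of these genes were listed at 0, and a further 23 stayed under 1 FPKM in both. Over all 20634 genes, counted in each library apart, 6062 were at 0 in ed/ed and 5996 in f/f. The remaining 33 reached 1 FPKM in at least 1 library and are compared here, as 22 receptors, 10 ligands and Il18bp.

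The RNA came from whole uteri on gestational day 4 of pregnant females aged 6 to 8 weeks, with the day of the vaginal plug counted as day 1. One library is labelled Mettl3 ed/ed and the other Mettl3 f/f, and Mettl3 encodes the enzyme that writes N6-methyladenosine on RNA. The labels do not spell out what these letters stand for, which promoter or cell type drives any deletion, or how many animals each library holds. Each genotype has 1 library, so no difference below has a replicate check, and the values compare these libraries. Mettl3 itself was at 10.2 FPKM in ed/ed and 10.6 FPKM in f/f. Its log2 ratio of -0.05 turned positive, from 0.03 to 0.36, under each of 4 other scalings, so the level of the targeted gene did not separate the libraries and directions rest on their labels. The listed values summed to 491403 FPKM in ed/ed and 522049 FPKM in f/f, with an estimated 17400000 fragments in ed/ed and 18300000 in f/f.

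Interleukins are secreted proteins through which immune, epithelial and stromal cells signal to each other. Most bind a receptor made of a ligand-specific chain and a chain shared with other interleukins, and decoy chains bind a ligand without passing the signal on. Receptors of the IL-2, IL-4, IL-6, IL-10 and IL-12 families signal through JAK kinases and STAT factors, whereas those of the IL-1 and IL-17 families signal through adaptor proteins to NF-kB. In the pregnant mouse uterus IL-11 and its receptor alpha chain are known for decidualization, and IL-15 for the growth of uterine natural killer cells.

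Each ratio is the log2 of FPKM + 1 in ed/ed divided by the same quantity in f/f, a scale that understates differences of low genes. Higher and lower mean at least 2-fold on that scale, which is a size and not a test. Of the 33 interleukin genes compared, 3 were higher in ed/ed (Il3ra, Il17rc and Il1f6) and 3 were lower (Il17rb, Il13ra2 and Il16). Of all 12165 genes that reached 1 FPKM, 2.68% (326) were higher, 6.22% (757) were lower and 8.9% were past 2-fold either way. The interleukin genes had 9.09% in each direction, and counts of 3 are too few to read a departure from that background. Among the 3 higher genes, Il1f6 reached 1 FPKM in ed/ed only. The split over all genes turns with the scale between the libraries: scaled by reference genes, 843 were higher and 296 lower.

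The promoters of the 4 receptor genes past 2-fold, and of the ligand gene Il16, are printed because these genes carry the differences described below. Each runs from 250 bases before to 50 bases after an annotated start, on the strand of the gene, from RefSeq on GRCm38.p6. Of the 33 genes compared, 24 have an entry there. Capitals mark matches to 6 motifs searched on both strands. They were the STAT site TTCNNNGAA, the interferon factor site (GAAA, any 2 bases, GAAA), the AP-1 site TGANTCA, the C/EBP site TTNNGCAA, the estrogen receptor core AGGTCA and the progesterone receptor core AGAACA.
Il17rb, chr14:30008847-30009146, minus strand: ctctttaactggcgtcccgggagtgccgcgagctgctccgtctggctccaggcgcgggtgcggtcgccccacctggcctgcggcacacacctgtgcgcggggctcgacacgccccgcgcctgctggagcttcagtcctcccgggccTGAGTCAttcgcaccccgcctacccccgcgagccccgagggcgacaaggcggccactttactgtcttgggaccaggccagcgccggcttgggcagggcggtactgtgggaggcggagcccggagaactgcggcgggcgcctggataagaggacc
Il13ra2, chrX:147429143-147429442, minus strand: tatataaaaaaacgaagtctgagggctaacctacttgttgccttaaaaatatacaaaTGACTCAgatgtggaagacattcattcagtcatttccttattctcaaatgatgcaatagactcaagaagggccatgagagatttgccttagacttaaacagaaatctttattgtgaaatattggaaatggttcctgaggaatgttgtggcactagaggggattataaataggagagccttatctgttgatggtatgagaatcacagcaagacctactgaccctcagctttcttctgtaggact
Il16, the most upstream of its 3 starts in that table, chr7:83735490-83735789, minus strand: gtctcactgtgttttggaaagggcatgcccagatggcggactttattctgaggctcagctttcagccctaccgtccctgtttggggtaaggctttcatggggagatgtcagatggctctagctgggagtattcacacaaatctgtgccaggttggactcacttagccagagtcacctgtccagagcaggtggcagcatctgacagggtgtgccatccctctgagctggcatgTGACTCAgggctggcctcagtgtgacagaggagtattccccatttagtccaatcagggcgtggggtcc
Il3ra, chr14:14346245-14346544, plus strand: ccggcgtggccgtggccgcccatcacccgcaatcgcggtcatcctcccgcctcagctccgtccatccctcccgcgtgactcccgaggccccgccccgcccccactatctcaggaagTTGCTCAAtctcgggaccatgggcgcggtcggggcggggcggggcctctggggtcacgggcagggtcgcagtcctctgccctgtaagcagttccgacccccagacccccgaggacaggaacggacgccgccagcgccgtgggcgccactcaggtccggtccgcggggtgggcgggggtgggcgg
Il17rc, chr6:113471205-113471504, plus strand: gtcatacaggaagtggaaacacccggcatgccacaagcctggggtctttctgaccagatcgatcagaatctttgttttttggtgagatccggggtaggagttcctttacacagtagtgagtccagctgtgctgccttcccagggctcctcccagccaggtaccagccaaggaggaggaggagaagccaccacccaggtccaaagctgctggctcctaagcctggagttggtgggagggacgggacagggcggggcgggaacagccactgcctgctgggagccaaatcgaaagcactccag
The capitals in Il17rb, Il13ra2 and Il16 are AP-1 sites, and those in Il3ra are a C/EBP site. Another Il16 window, chr7:83655446-83655745, is not printed and holds a C/EBP site and an estrogen receptor core. The remaining Il16 window, chr7:83732349-83732648, holds no match. No letters of the 6 motifs were found in the Il17rc window. An AP-1 site was held by 7 of the 24 genes (Il13ra2, Il15ra, Il16, Il17rb, Il1f8, Il20ra and Il6), against 8.97% of all 27025 genes with a promoter entry. A C/EBP site was held by 7 (Il16, Il18bp, Il1r1, Il1rl2, Il20rb, Il3ra and Il6), against 12.2% of all genes. A progesterone receptor core was held by 5, against 21.3%, and an estrogen receptor core by 2 (Il16 and Il20rb), against 18.1%. A STAT site was held by 2, against 9.55%, and an interferon factor site by 1, against 3.99%. These matches describe letters in the windows, and binding was not measured.

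All 5 IL-17 receptor genes were expressed, and they differed in direction. Il17rb encodes the chain that binds IL-25 and IL-17B. It was at 17.3 FPKM in ed/ed and 166 FPKM in f/f, a log2 ratio of -3.19, or 9.12-fold lower in ed/ed, and had the 9th lowest ratio of all 12165 genes. The FPKM ratio of 0.104 had a 95% exact binomial interval of 0.0953 to 0.114, which covers counting error in the estimated fragments only. Il17rb made up 7.20% of the summed FPKM of the 38 receptor genes in ed/ed and 47.95% in f/f. It was thus the most abundant receptor gene in f/f, whereas in ed/ed it ranked behind Il11ra1, Il1r1, Il3ra and Il17rc. Without Il17rb the other 37 receptor genes summed to 223 FPKM in ed/ed and 180 FPKM in f/f.

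Il17rc, the chain that joins the shared chain Il17ra to bind IL-17A and IL-17F, went the other way. It was at 28.1 FPKM in ed/ed and 12.96 FPKM in f/f, a log2 ratio of 1.06. The counting interval of its FPKM ratio of 2.17 was 1.94 to 2.42, which spans 2-fold. The other 3 chains lay within 2-fold. The shared chain gene Il17ra was at 3.37 FPKM in ed/ed and 4.46 FPKM in f/f. Il17rd, whose product also restrains FGF signalling, was at 2.64 FPKM in ed/ed and 2.98 FPKM in f/f, and Il17re, the chain for IL-17C, at 14.6 FPKM in ed/ed and 15.7 FPKM in f/f. The signs of these 3 small differences flipped under at least 1 other scaling. Levels set against each other within a library do not depend on scaling. Il17rb stood at 0.615 times the level of Il17rc in ed/ed and 12.8 times in f/f. Against Il17ra it stood at 5.12 times in ed/ed and 37.2 times in f/f.

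**Figure D1:**
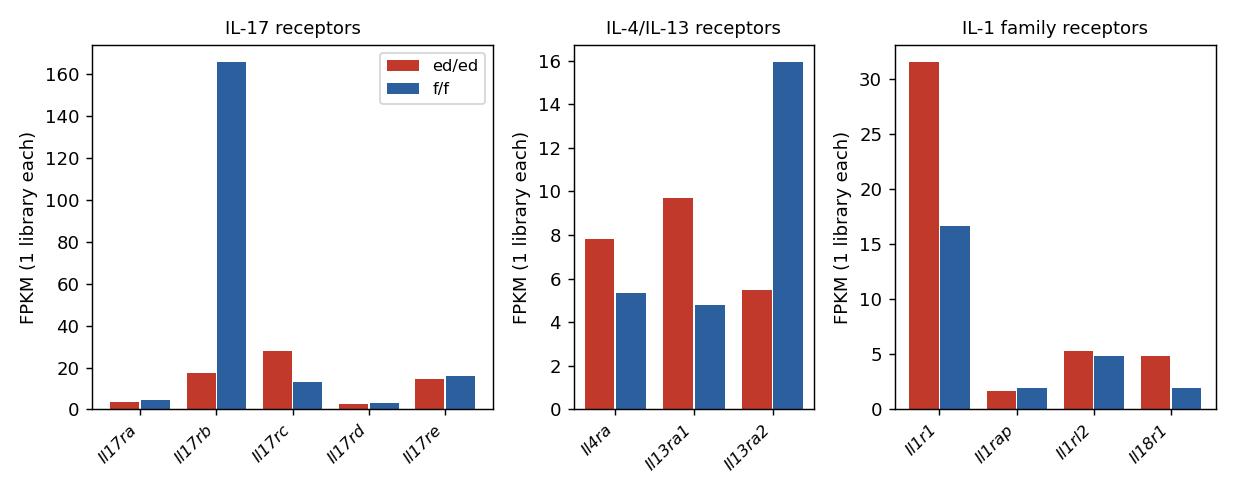
FPKM (vertical axes, from 0) of expressed receptor genes of 3 families in the ed/ed library (red) and the f/f library (blue), with 1 library each and no error bars. Il17rb is at 17.3 FPKM in ed/ed and 166 FPKM in f/f, and Il13ra2 and Il13ra1 differ in opposite directions.

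Il17rb and Il17rc were set beside the genes around them because the sources do not say whether counting used strand. Il17rb (chromosome 14, 29996135 to 30008896, minus strand, GRCm38) overlaps Actr8, which encodes an actin-related protein, on the other strand. The overlap covers 141 of the 3707 exonic bases of Il17rb, or 3.804%. Actr8 was at 10.9 FPKM in ed/ed and 39.1 FPKM in f/f, a log2 ratio of -1.75, so the overlapping gene was lower too. On the other side, Chdh, the choline dehydrogenase gene, starts within the Il17rb promoter window and was at 103 FPKM in ed/ed and 145 FPKM in f/f. Il17rc (chromosome 6, 113471427 to 113483140) starts just after the end of Il17re at 113470758 on the same strand, and Il17re did not share its direction past 2-fold. Il16 shares 1202 of its 7865 exonic bases with Stard5 on the other strand, which was at 55.05 FPKM in ed/ed and 71.2 FPKM in f/f. Reads in such overlaps cannot be told apart without strand.

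The receptors of IL-4 and IL-13 split in the same way. Il13ra2, the decoy receptor of IL-13 (chromosome X, 147383476 to 147429192), was at 5.47 FPKM in ed/ed and 15.9 FPKM in f/f. Its log2 ratio was -1.39, with a counting interval of 0.290 to 0.405 around an FPKM ratio of 0.343. Il13ra1, the chain that joins Il4ra to pass on the IL-13 signal, was at 9.68 FPKM in ed/ed and 4.79 FPKM in f/f, with a log2 ratio of 0.88 just inside 2-fold. Il4ra was at 7.82 FPKM in ed/ed and 5.32 FPKM in f/f. The decoy gene therefore stood at 0.565 times the level of Il13ra1 in ed/ed and 3.33 times in f/f. Il4 and Il13, the genes of the ligands, were listed at 0 in both libraries.

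Il3ra, the chain that binds IL-3, had the highest ratio of the receptors. It was at 28.2 FPKM in ed/ed and 9.17 FPKM in f/f, a log2 ratio of 1.52, with a counting interval of 2.72 to 3.48 around an FPKM ratio of 3.07. A signalling partner, Csf2rb, the common beta chain, was at 1.34 FPKM in ed/ed and 1.32 FPKM in f/f. Csf2rb2 was under 1 FPKM, at 0.539 in ed/ed and 0.582 in f/f. Of the ligand genes of this family, Il3 was listed at 0 in both libraries, and Il5 was listed at 0 in ed/ed and was at 0.0424 FPKM in f/f, an estimated 1 fragment.

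Among IL-1 family receptors 0 passed 2-fold on the (FPKM + 1) scale, although Il1r1 and Il18r1 lay just inside it. Il1r1, the signalling receptor of IL-1 (chromosome 1, 40225080 to 40317257), was at 31.6 FPKM in ed/ed and 16.7 FPKM in f/f, a log2 ratio of 0.88. Il18r1, the chain that binds IL-18, was at 4.84 FPKM in ed/ed and 1.98 FPKM in f/f, a log2 ratio of 0.97. Without the added 1, the FPKM ratios were 1.89 for Il1r1 and 2.44 for Il18r1. Their counting intervals lay above equal levels, at 1.78 to 2.01 for Il1r1 and for Il18r1 at 2.005 to 3.006, the latter above 2-fold. Their accessory chains did not share this. Il1rap, which serves the receptors of IL-1, IL-33 and IL-36, was at 1.65 FPKM in ed/ed and 1.94 FPKM in f/f, and Il18rap lay below 1 FPKM at 0.246 in ed/ed and 0.336 in f/f. Il1rl2, the IL-36 receptor, was at 5.32 FPKM in ed/ed and 4.83 FPKM in f/f. The decoy gene Il1r2, at 0.593 FPKM in ed/ed and 0.245 FPKM in f/f, and the IL-33 receptor gene Il1rl1, at 0.0525 FPKM in ed/ed and 0.210 FPKM in f/f, stayed under 1 FPKM.

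Of the IL-10 family receptors, Il10ra, the chain that binds IL-10, was at 3.43 FPKM in ed/ed and 1.23 FPKM in f/f. On the (FPKM + 1) scale its log2 ratio of 0.99 was the closest of the interleukin genes to 2-fold without reaching it. Its FPKM ratio, without the added 1, was 2.79, with a counting interval of 2.12 to 3.70. Il10rb, which is shared with other receptors of the family, was at 15.3 FPKM in ed/ed and 13.02 FPKM in f/f. The chains of the IL-20 receptor lay within 2-fold on the (FPKM + 1) scale. Il20ra was at 0.852 FPKM in ed/ed and 1.85 FPKM in f/f, an FPKM ratio of 0.459 without the added 1. Il20rb was at 1.71 FPKM in ed/ed and 2.77 FPKM in f/f.

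Il11ra1, the IL-11 receptor alpha chain, was the most abundant receptor gene in ed/ed, at 40.9 FPKM, and was at 43.02 FPKM in f/f. Its log2 ratio of -0.07 turned positive under other scalings, and the counting interval of its FPKM ratio, 0.879 to 1.03, spanned equal levels. A near copy, Il11ra2, was at 0.178 FPKM in ed/ed and 0.961 FPKM in f/f. Of the 50-base windows of the annotated Il11ra2 transcript, 59.3% also occur in Il11ra1, so how reads were split between these genes is uncertain. The ligand gene Il11 was at 0.222 FPKM in ed/ed and was listed at 0 in f/f.

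Receptors of the common gamma chain family lay within 2-fold. Il2rg, the common gamma chain, was at 5.48 FPKM in ed/ed and 8.23 FPKM in f/f. Il15ra, which presents IL-15, was at 4.75 FPKM in ed/ed and 4.98 FPKM in f/f, and Il2rb, the signalling chain for IL-2 and IL-15, at 3.04 FPKM in ed/ed and 2.67 FPKM in f/f. The lymphocyte receptor genes Il7r, Il2ra and Il21r stayed under 1 FPKM in both libraries, from 0.0963 to 0.858 FPKM in ed/ed and from 0.240 to 0.550 FPKM in f/f. Of the IL-12 family, Il27ra was at 0.504 FPKM in ed/ed and 1.01 FPKM in f/f, and Il12rb1, Il12rb2 and Il23r stayed under 1 FPKM.

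**Figure D2:**
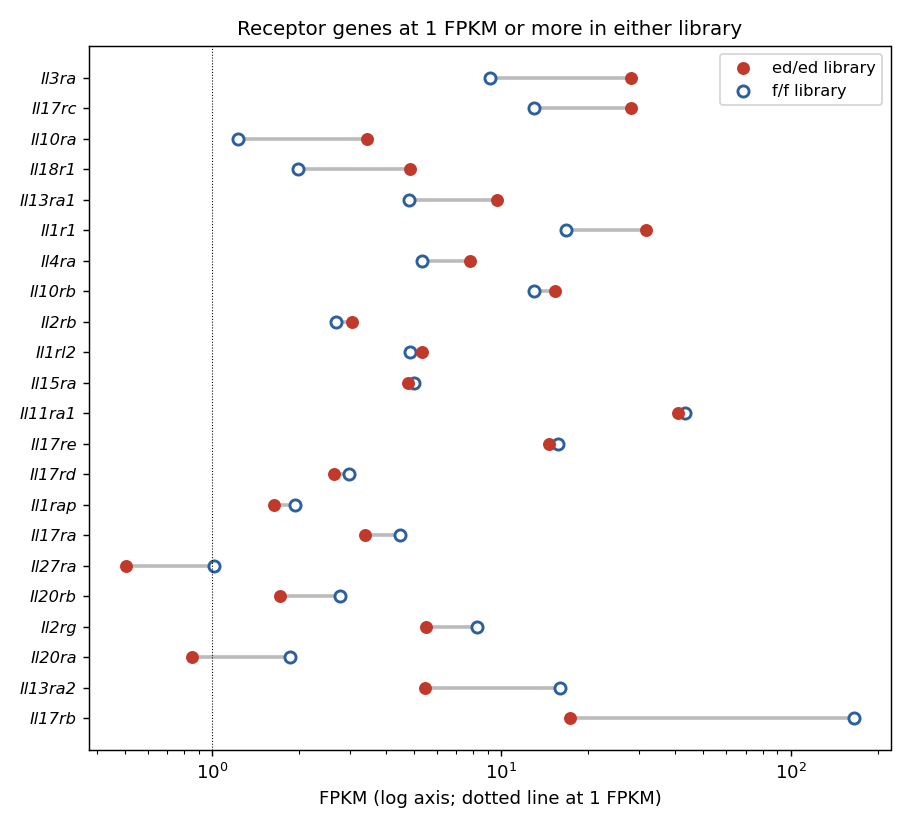
FPKM on a log axis of the 22 receptor genes that reached 1 FPKM, with the ed/ed library as filled red points and the f/f library as open blue points, ordered by ratio. Il3ra and Il17rc lie to the right in ed/ed by more than 2-fold, Il13ra2 and Il17rb to the left, and the other 18 genes lie within 2-fold on the (FPKM + 1) scale.

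Across the 22 receptor genes 2 were higher, 2 lower and 18 within 2-fold. Their median log2 ratio was -0.06, against -0.26 for all genes, and 15 of them lay above that median. Receptors spanned a wide range of levels, and 12 of the 38 reached 5 FPKM in at least 1 library, compared with 2 of the 37 ligand genes.

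**Figure D3:**
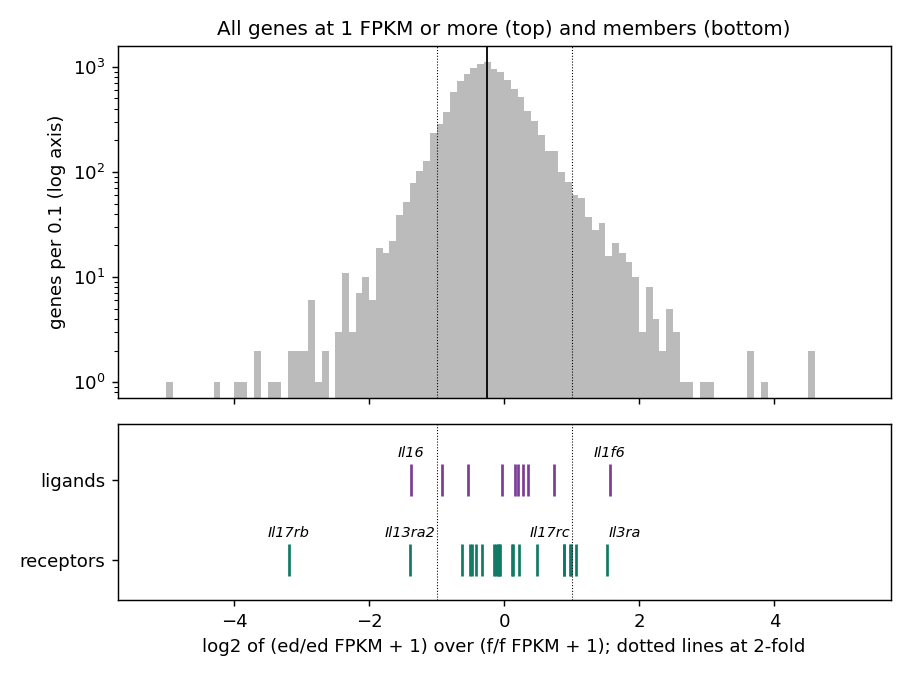
Number of genes (log axis) by log2 ratio of FPKM + 1, ed/ed to f/f, for all 12165 genes, above the ratios of the 10 ligand and 22 receptor genes as ticks. The solid line is the median of all genes, -0.26, and the dotted lines mark 2-fold. Il17rb, at -3.19, stands far to the left of the other interleukin genes.

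Ligand genes were few and low. Of 37, 20 were listed at 0 in both libraries, 7 stayed under 1 FPKM and 10 were compared. Of all 20634 genes listed, 6062 were at 0 in ed/ed and 5996 in f/f, counted in each library apart. The 20 listed at 0 were Il2, Il3, Il4, Il9, Il10, Il12a, Il12b, Il13, Il17a, Il17b, Il17c, Il17f, Il1f10, Il20, Il21, Il22, Il24, Il25, Il27 and Il31. They include 5 of the 6 IL-17 family ligand genes, among them Il25 and Il17b, whose products bind the receptor chain of Il17rb. An exact 0 in such a table can be an estimate that failed, so no limit is put on these levels. The receptor genes listed at 0 in both libraries were Il5ra, Il9r and Il1rapl1, and Il22ra2 was at 0 as well.

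Il16 was the most abundant ligand gene and was lower in ed/ed. It encodes a precursor that is cut to release a chemoattractant for CD4-bearing cells (chromosome 7, 83642825 to 83745726). It was at 6.27 FPKM in ed/ed and 17.8 FPKM in f/f, a log2 ratio of -1.37, with a counting interval of 0.319 to 0.388 around an FPKM ratio of 0.352. Scaled by reference genes, its log2 ratio was -0.98, which ends the call. Il15, the growth factor of natural killer cells, was the next most abundant in both libraries, at 6.09 FPKM in ed/ed and 4.55 FPKM in f/f. Il23a, the specific subunit of IL-23, followed in both libraries, at 3.64 FPKM in ed/ed and 3.15 FPKM in f/f.

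Il1f6, which encodes IL-36 alpha (chromosome 2, 24215418 to 24225702), was the ligand gene called higher. It was at 2.73 FPKM in ed/ed and 0.262 FPKM in f/f, an estimated 30 fragments in ed/ed and 3 in f/f. The FPKM ratio of 10.4 had a wide counting interval of 3.27 to 53.9, and with a pseudocount of 5 FPKM its log2 ratio was 0.56, within 2-fold. Il1f8, which encodes IL-36 beta, lies in the same group of genes on chromosome 2. It was at 1.11 FPKM in ed/ed and 2.98 FPKM in f/f, a log2 ratio of -0.91, within 2-fold on the (FPKM + 1) scale. Without the added 1 its FPKM ratio was 0.373, with a counting interval of 0.211 to 0.648. Il1b, the inflammatory cytokine IL-1 beta, was at 1.17 FPKM in ed/ed and 0.298 FPKM in f/f, an estimated 23 fragments in ed/ed and 6 in f/f, and its log2 ratio of 0.74 stayed inside 2-fold.

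The other ligand genes compared were close in both libraries or low. Il6 was at 1.28 FPKM in ed/ed and 0.983 FPKM in f/f, Il17d at 2.60 FPKM in ed/ed and 1.97 FPKM in f/f, and Il18 at 1.97 FPKM in ed/ed and 2.03 FPKM in f/f. Il34, the second ligand of the CSF1 receptor, was at 0.465 FPKM in ed/ed and 1.12 FPKM in f/f, an estimated 12 fragments in ed/ed and 32 in f/f. Il18bp, the soluble protein that captures IL-18, was at 3.42 FPKM in ed/ed and 1.87 FPKM in f/f, a log2 ratio of 0.62. The antagonist gene Il1rn was at 0.298 FPKM in ed/ed and listed at 0 in f/f. Over the 10 ligand genes the median log2 ratio was 0.18, against -0.26 for all genes, with 1 higher, 1 lower and 8 within 2-fold.

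**Figure D4:**
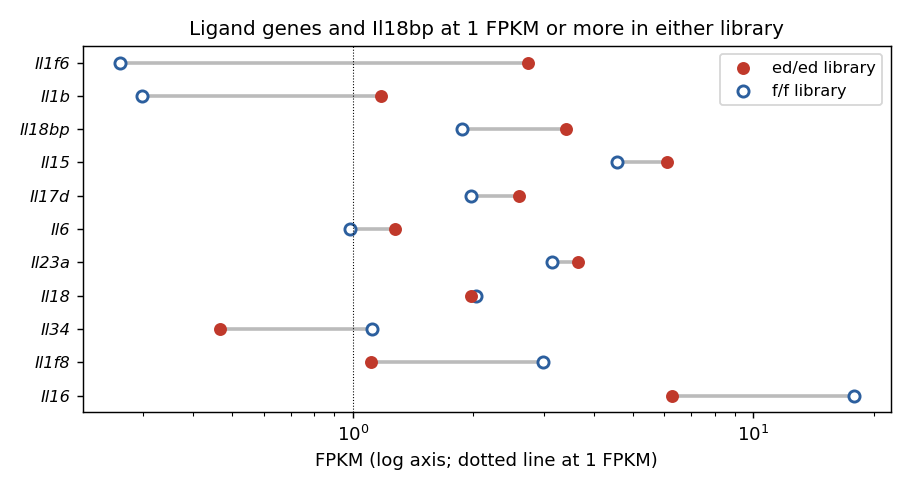
FPKM on a log axis of the 10 ligand genes and Il18bp, with the ed/ed library as filled red points and the f/f library as open blue points, ordered by ratio. Il1f6 and Il16 are the genes past 2-fold on the (FPKM + 1) scale. On the plotted FPKM, without the added 1, Il1b (3.94-fold), Il1f8 (2.68-fold) and Il34 (2.40-fold) also differ by more than 2-fold. All values except those of Il16 and Il15 lie under 5 FPKM.

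Other genes of these pathways were taken from 5 lists of 96 genes in all, of which 81 were expressed. Of these, 5 were higher and 2 lower by 2-fold, with a median log2 ratio of -0.03. Of all 12165 genes compared, 2.68% were higher and 6.22% lower, which is the background as deposited for each list below. With the trend of ratio with transcript length removed, 525 of 12158 genes were higher and 347 lower. Among shared receptor chains and ligands with other names, 2 of 15 were higher as deposited, against 3 with that trend removed. The 2 were Osmr, the oncostatin M receptor gene, at 4.52 FPKM in ed/ed and 0.587 FPKM in f/f, and Cntf, the ciliary neurotrophic factor gene, at 7.50 FPKM in ed/ed and 2.29 FPKM in f/f. Clcf1, which encodes another cytokine of the IL-6 family, was at 9.84 FPKM in ed/ed and 4.58 FPKM in f/f, just inside 2-fold.

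Of 24 JAK, STAT and SOCS genes, 2 were lower and 0 higher as deposited, against 0 lower and 3 higher with the trend of ratio with transcript length removed. The kinase gene Jak2 was at 53.3 FPKM in ed/ed and 128 FPKM in f/f, and Socs7 at 10.5 FPKM in ed/ed and 26.1 FPKM in f/f. Next in size of ratio was Stat5a, at 4.32 FPKM in ed/ed and 9.18 FPKM in f/f. In the IL-1 receptor adaptor branch and among NF-kB genes 0 of 17 and 0 of 14 passed 2-fold, against 1 of 17 and 0 of 14 with the length trend removed. Pycard, the inflammasome adaptor gene, was at 33.5 FPKM in ed/ed and 17.4 FPKM in f/f, and the kinase gene Irak1 at 17.5 FPKM in ed/ed and 28.3 FPKM in f/f. The adaptor gene Myd88 was at 248.8 FPKM in ed/ed and 388 FPKM in f/f. Of the NF-kB genes, the inhibitor genes Nfkbia, at 90.8 FPKM in ed/ed and 53.1 FPKM in f/f, and Nfkbib, at 10.9 FPKM in ed/ed and 19.7 FPKM in f/f, had the largest ratios, followed by the subunit gene Rel at 6.74 FPKM in ed/ed and 11.5 FPKM in f/f.

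Of 13 expressed genes in the IL-17 receptor branch, which holds adaptors and known targets, 3 were higher and 0 lower as deposited. With the length trend removed, 4 were higher and 0 lower. The 3 as deposited follow. Cebpd, a transcription factor gene, was at 112 FPKM in ed/ed and 12.7 FPKM in f/f. Lcn2, which encodes an iron-sequestering lipocalin, was at 9.81 FPKM in ed/ed and 2.201 FPKM in f/f. S100a9, a neutrophil calcium-binding protein gene, was at 1.25 FPKM in ed/ed and listed at 0 in f/f, so its place among the 3 rests on a value of 0 that may be a failed estimate. S100a8, whose product pairs with that of S100a9, was at 0.489 FPKM in ed/ed and 1.29 FPKM in f/f. These targets answer to many signals besides IL-17. The adaptor gene Traf3ip2, which encodes Act1, was at 14.7 FPKM in ed/ed and 19.2 FPKM in f/f.

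Markers of the cells in the tissue moved with some of these genes. In bulk tissue, fewer cells of a type and less RNA per cell cannot be told apart. Over all genes, 2.68% were higher and 6.22% lower as deposited. With the length trend removed, 525 of 12158 genes were higher and 347 lower. Of 7 endothelial markers 6 were lower by 2-fold as deposited and 2 (Cdh5 and Tek) with the length trend removed, with summed FPKM of 70.9 in ed/ed and 176 in f/f. Of 7 stromal markers 4 were lower as deposited and 1 (Pdgfra) with the length trend removed, summing to 325 FPKM in ed/ed and 670.1 FPKM in f/f. Markers of epithelium summed to 2733 FPKM in ed/ed and 2718 FPKM in f/f, with 0 of 8 past 2-fold as deposited and 1 higher with the trend removed. Smooth muscle markers summed to 792 FPKM in ed/ed and 470.4 FPKM in f/f, with 1 of 6 higher as deposited and 3 with the trend removed.

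Macrophage markers summed to 351 FPKM in ed/ed and 187 FPKM in f/f, and all 8 expressed ones lay above the median of all genes, with Aif1 and Lyz2 higher by 2-fold. T cell markers were low, at 4.50 FPKM in ed/ed and 3.96 FPKM in f/f over 7 genes, and natural killer cell markers summed to 18.6 FPKM in ed/ed and 16.0 FPKM in f/f. Neutrophil markers summed to 3.75 FPKM in ed/ed and 5.81 FPKM in f/f over 6 genes, with S100a9, named above, higher and 1 other lower, and dendritic cell markers to 4.57 FPKM in ed/ed and 5.94 FPKM in f/f over 5. The mast cell markers Cpa3, Mcpt4 and Fcer1a, the eosinophil marker Epx and the embryo markers Pou5f1, Nanog and Cdx2 were listed at 0 in both libraries. The 6 mast cell markers summed to 7.84 FPKM in ed/ed and 2.94 FPKM in f/f, of which Kit, a receptor gene that other cells express too, gave 6.71 FPKM in ed/ed and all of the sum in f/f. The 4 eosinophil markers summed to 0 in ed/ed and 0.611 FPKM in f/f. Ovary or oviduct markers summed to 63.6 FPKM in ed/ed and 42.1 FPKM in f/f over 5 genes. The part of these cell types in the interleukin gene differences was not tested.

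How many receptor genes counted as higher depended on the scale between the libraries. Other scalings moved log2 ratios of FPKM up by 0.09 with the sum of each library, 0.21 with the upper quartile, 0.28 with the median ratio and 0.44 with reference genes. Under the last 3, and with the length trend removed, 6 receptor genes were higher, with Il10ra, Il18r1, Il13ra1 and Il1r1 joining Il3ra and Il17rc. Il17rb and Il13ra2 stayed lower. Counts over all genes rose as well, from 326 higher as deposited to 506 by upper quartile, 583 by median ratio and 843 by reference genes. With the length trend removed, 525 of all genes were higher. The 6 genes past 2-fold as deposited kept their sign under every alternative run. Pseudocounts, filters and the fold rule cannot reverse a sign. The scalings raised log2 ratios of FPKM by at most 0.44, too little to reverse any of the 6. At 1.5-fold, 6 of the 22 receptor genes were higher and 3 lower, against 7.04% and 23.4% of all genes.

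**Figure D5:**
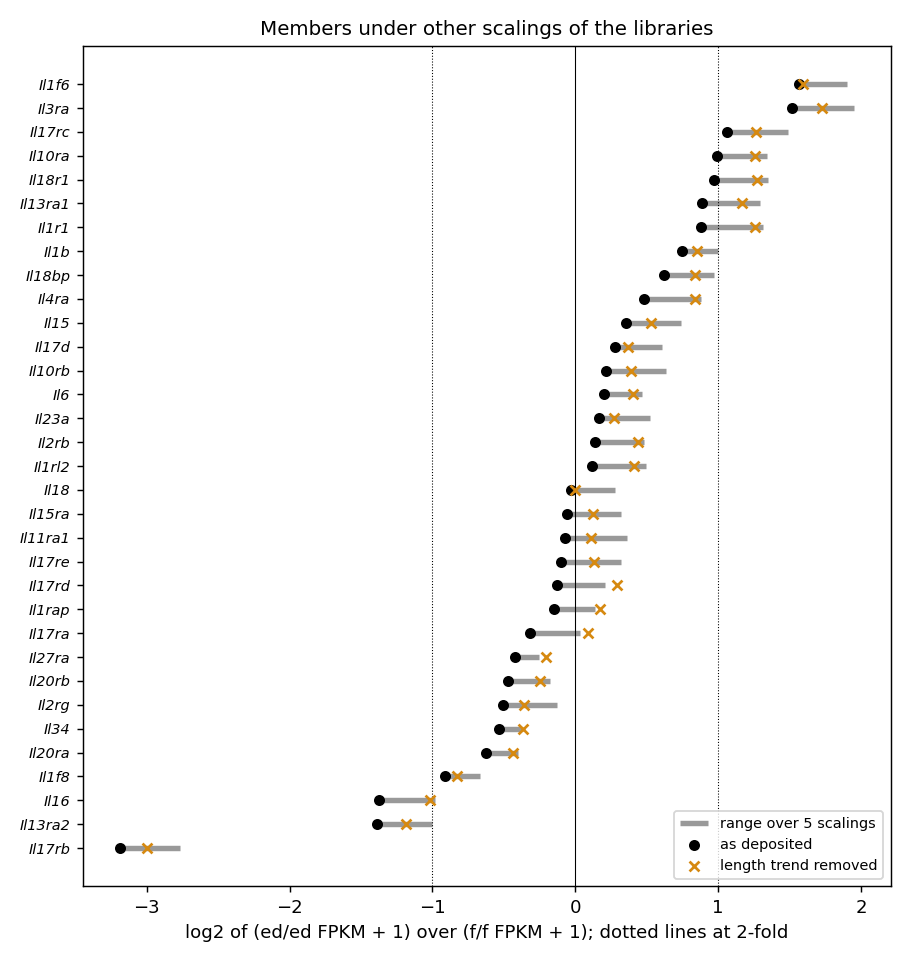
Log2 ratio of FPKM + 1, ed/ed to f/f, for the 33 genes compared, as deposited (black points), over 5 scalings including the deposited one (grey bars) and with the length trend removed (orange crosses). Il10ra, Il18r1, Il13ra1 and Il1r1 pass the dotted line at 2-fold under some scalings, and Il17rb stays between -3.19 and -2.77.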

How the data were processed

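Total RNA of whole uterus was sequenced from 1 ed/ed and 1 f/f library, made with a TruSeq RNA kit per the labels' protocols. The authors deposited 1 value per gene, taken as FPKM because HISAT2 2.2.1 and Cufflinks 2.2.1 are named in the submitters' processing notes and the header names no unit. Those notes name builds mm9 and mm10 without a role, and leave out annotation, strand and filters, which were not given in the sources used here. Coordinates and transcript lengths came from GENCODE M21 on GRCm38 and locate genes, not reads.

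Genes that reached 1 FPKM in at least 1 library were compared on log2(FPKM + 1), with a 2-fold rule and no p-value, since 1 library per genotype allows no test. The spacing of low values gave an estimate of depth, from genes with 1 transcript over 1000 nt, at an effective length 250 nt below the transcript (0.0576 FPKM times kb per fragment in ed/ed, 0.0547 in f/f). Fragments behind a value rest on the longest coding transcript. Intervals (95%, exact binomial) cover counting error only.

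Every symbol matching the rule is a member. The text gives values of those past 2-fold, the 3 most abundant ligands and receptors, and, from each pathway list, members past 2-fold and up to 3 of the largest ratios. Members and lists were chosen with earlier results of these data known. Other genes (neighbours, Mettl3, markers, Csf2rb, Csf2rb2, Traf3ip2) were named after their values were seen. The scripts, in Python 3.11.15 with pandas 2.3.3, SciPy 1.17.1 and statsmodels 0.14.6, were tested on simulated data. Alternatives were pseudocounts of 0.1 and 5, the filter dropped or raised to 5 FPKM, a 1.5-fold rule, 4 scalings (sum, median ratio, upper quartile, 12 reference genes) and removal of the length trend by lowess (fraction 0.3). The result of 1 marker list is not reported here.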

Additional observations from a re-analysis of the deposited data

How the results depend on the processing

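No paired analysis was possible because each genotype has 1 library, and no library could be left out. Over the 33 genes compared and 10 alternatives, 247 of 311 ratios kept their sign and their side of the threshold, and 27 ratios within 2-fold, of 7 genes, changed sign and stayed within it. A further 33 came to pass the threshold, 4 ceased to and 0 called ratios changed sign. Changes of filter, pseudocount or fold rule cannot change a sign, and a filter leaves each ratio it keeps as deposited. Il17rb and Il3ra were called under all 10. The 4 that ceased to pass were Il16 (-0.98) under reference gene scaling, and Il1f6 (0.56), Il17rc (0.88) and Il13ra2 (-0.9995) with a pseudocount of 5.

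Receptor genes higher, 2 as deposited, numbered 5 with a pseudocount of 0.1, 1 with 5, 6 under the 1.5-fold rule, 4 scaled by sum, and 6 under the other 3 scalings and without the length trend. Receptor genes lower, 2 as deposited, numbered 1 with a pseudocount of 5 and 3 with 0.1 or 1.5-fold. Ligand genes higher, 1 as deposited, numbered 2 with a pseudocount of 0.1 or 1.5-fold and 0 with a pseudocount or filter of 5. Ligand genes lower, 1 as deposited, numbered 3 with a pseudocount of 0.1, 2 at 1.5-fold and 0 under reference gene scaling. Median ratios ran from -0.51 (filter of 5 FPKM, on 2 genes) to 0.49 for ligands and from -0.07 to 0.36 for receptors.

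Pathway genes higher, 5 as deposited, numbered 2 with a pseudocount of 5, 3 with a filter of 5, 13 at 1.5-fold, 8 by sum, 12 by median ratio, 11 by upper quartile, 13 by reference genes and 11 without the length trend. Those lower, 2 as deposited, numbered 4 with a pseudocount of 0.1, 12 at 1.5-fold and 0 by median ratio, reference genes and without the length trend.

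All genes higher, 326 as deposited, numbered 489 with a pseudocount of 0.1, 112 with 5, 856 at 1.5-fold, 218 with a filter of 5, 387 by sum, 583 by median ratio, 506 by upper quartile, 843 by reference genes and 525 without the length trend. Those lower, 757 as deposited, numbered 1336, 207, 2850, 563, 608, 398, 466, 296 and 347 in the same order. The median of all genes, -0.26 as deposited, was -0.29 with a pseudocount of 0.1, -0.17 with 5, -0.19 without a filter, -0.18 by sum, -0.0095 by median ratio, -0.0725 by upper quartile, 0.14 by reference genes and -0.0020 without the length trend. A scaling or pseudocount enters each ratio directly, and what else makes a value change sides was not tested. Depth limits most the genes under 3 FPKM, such as Il1f6, Il1b and Il34.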

Other observations

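On the plus strand of chromosome 1, 6 interleukin receptor genes lie side by side from 40074079 to 40551705 on GRCm38, over 478 kb. Their summed level was 42.6 FPKM in ed/ed and 24.3 FPKM in f/f, and 0 of the 6 passed 2-fold on the (FPKM + 1) scale. Most of the sum was Il1r1, at 31.6 FPKM in ed/ed and 16.7 FPKM in f/f. Its neighbour on one side, the decoy gene Il1r2, was at 0.593 FPKM in ed/ed and 0.245 FPKM in f/f, and on the other side Il1rl2 was at 5.32 FPKM in ed/ed and 4.83 FPKM in f/f. Genes next to each other there thus differed widely in level.

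A second group of 6 genes lies on chromosome 2 from 24153161 to 24351494, over 198 kb. It summed to 4.40 FPKM in ed/ed and 3.39 FPKM in f/f, and most of the sum was Il1f6 in ed/ed and Il1f8 in f/f. Il1f6 stood at 2.46 times Il1f8 in ed/ed and 0.0878 times in f/f. Il1f9, Il1f5 and Il1rn stayed under 1 FPKM and Il1f10 was listed at 0. Il1f5, which encodes the antagonist of the IL-36 receptor, was at 0.178 FPKM in ed/ed and 0.148 FPKM in f/f.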
